A study of Mus musculus with 2 samples.

Results

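The genes described here are 9 germ cell and oocyte transcription regulators, Figla, Nobox, Sohlh1, Sohlh2, Lhx8, Taf4b, Foxo3, Pou5f1 and Bnc1. They were taken as a set of named genes, and their probes are the gene probes of the array whose gene name is one of the 9, which gave 12 probes among 56600 and 9 genes among 37008 gene names. RNA came from 123 unfertilised oocytes of C57BL/6 mice lacking Mul1 (MUL1 -/-) and from 213 unfertilised oocytes of wild-type C57BL/6 mice (MUL1 +/+), each pooled and hybridised as Cy3-labelled cRNA to 1 single-colour Agilent array. The ages and any treatment of the mice, and the part of Mul1 that was deleted, are not given in the labels. Mul1 encodes a ubiquitin ligase of the outer mitochondrial membrane. With 1 array for each genotype no test was possible, so differences are described by size and by the error that the scanner software assigns to a single spot, and that error does not cover variation between mice or pools.

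These proteins act in a cascade that forms and maintains the oocyte. SOHLH1 and SOHLH2 are basic helix-loop-helix factors of early germ cells and primordial follicles, upstream of the homeobox factors NOBOX and LHX8 and of FIGLA, a basic helix-loop-helix factor needed for primordial follicles and for the zona pellucida genes. FOXO3 is a forkhead factor that holds primordial follicles dormant, TAF4B is a gonad-enriched subunit of the general transcription factor TFIID, OCT4 (gene Pou5f1) is the POU-domain factor of pluripotent cells and germ cells, and BNC1 is a zinc finger protein of oocytes that is also made in several epithelia.

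The arrays stand on 1 slide, and signals are background-subtracted scanner values. The level of a gene was its log2 signal minus the array's 75th percentile, which lay at a signal of 789.6 on the knockout array and 808 on the wild-type array, and every difference is knockout minus wild type. The lowest signal called well above background was 15.8 on the knockout array and 12.9 on the wild-type array. Each member probe had 1 spot, and levels of different probes are not set against each other. For 296 probes with 10 spots, the log2 difference had a median standard deviation of 0.04 between spots, or 0.12 for 12 dimmer probes. The scanner error of the difference at a member probe, 0.20 or more, is assigned by the software and is not a measured spread of spots. Scaling on spike-in controls in place of the percentile raised all differences by 0.13. Mul1 read 1074 on the knockout array and 3353 on the wild-type array at its RefSeq probe, a difference of -1.61, and 23.1 and 19.3 at its Ensembl probe, a difference of 0.29. All 10 oocyte markers and all 10 cumulus markers looked at were well above background on both arrays, with medians of 0.12 and 0.21. In multiples of the 75th percentile, oocyte markers summed to 101 on the knockout and 108 on the wild-type array, and cumulus markers to 218 and 199.7. Most of the oocyte sum is Gdf9, which read 61515 on the knockout and 68126 on the wild-type array. Of the 10 oocyte markers 6 lay above 0 and 4 below. At 1.5-fold 3 were higher in the knockout and 0 lower, where 7.83% of all genes were higher and 5.19% lower. With normexp 1 was that much higher, and with the stricter filter on dim probes 2 of the 9 left were. Immune cell markers summed to 62.3 on the knockout and 22.1 on the wild-type array, with 9 of 10 at least 2-fold higher in the knockout. The 5 measured red cell markers summed to 25.6 on the knockout and 78.6 on the wild-type array, each at least 2-fold lower in the knockout, or 4 of 5 on the spike-in scale and with normexp. Epithelium markers summed to 154 on the knockout and 97.3 on the wild-type array, 2 of 10 at least 2-fold higher, or 1 of 10 with normexp. The stricter filter on dim probes left 5 of them, 1 at least 2-fold higher. Ovgp1 alone made 87.5 and 30.0 of the epithelium sums, and the other 9 markers summed to 66.4 on the knockout and 67.3 on the wild-type array. Most of that remainder is Krt8, at 25666 on the knockout and 25222 on the wild-type array, and Krt18, at 24029 and 27078. Of the 10 epithelium markers 8 lay above 0 and 2 below, and Cdh1 stood at 0.75. The lists ran from Gdf9 at -0.11 to Ooep at 0.94 for oocytes, from Amh at -0.81 to Has2 at 1.16 for cumulus, from Ptprc at 0.84 to S100a9 at 3.27 for immune cells and from Hba-a2 at -1.66 to Alas2 at -1.03 for red cells. No marker measured in these lists was below background on either array, and the part of these cells in the differences below was not tested. In pooled RNA of this kind, fewer cells of a type and less RNA per cell cannot be told apart.

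For Foxo3 and Lhx8, whose probes differed in size within the gene, and for Pou5f1, a gene with processed pseudogenes, probes are shown 5′ to 3′ as on the array, with runs of at least 4 G or C in capitals. Each reads through without a stop codon in at least 1 forward frame.
Foxo3, upstream probe, chr10:41994961-41995020, minus strand: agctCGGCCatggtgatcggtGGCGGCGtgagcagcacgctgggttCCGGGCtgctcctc
Foxo3, middle probe, chr10:41916349-41916408, minus strand: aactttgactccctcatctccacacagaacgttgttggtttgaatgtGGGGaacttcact
Lhx8, upstream probe, chr3:153974609-153974668, minus strand: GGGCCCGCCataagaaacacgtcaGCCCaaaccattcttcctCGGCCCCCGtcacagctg
Pou5f1, single probe, chr17:35647013-35647072, plus strand: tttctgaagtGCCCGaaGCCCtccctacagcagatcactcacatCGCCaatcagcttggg
Positions follow mouse build mm9, as the deposited files give them, and whether a probe lies in coding sequence or a UTR was not looked up. The upstream Foxo3 probe is 70% G and C and the middle one 45%, and the Lhx8 and Pou5f1 probes shown are 61.7% and 55%.

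No member measured on both arrays was 1.5-fold apart between the genotypes. Of the 9 genes, 7 were well above background on both arrays, Figla was so on the wild-type array alone, and Sohlh1 on neither. Among the 7, none was at least 2-fold apart, where 2.93% of all 22894 measured genes were at least 2-fold higher in the knockout and 1.37% at least 2-fold lower (670 and 313 genes, or 896 and 202 on the spike-in scale). At 1.5-fold none was called either, where 7.83% of all genes were that much higher and 5.19% that much lower. Figla, whose knockout spot missed the background call, is not among the 7. Nobox, Lhx8, Pou5f1 and Bnc1 lay above 0, while Sohlh2, Taf4b and Foxo3 lay below, with a range of -0.44 to 0.41. Their median was 0.31, against 0.03 over all measured genes, of which 54.8% lay above 0. On the spike-in scale 6 of the 7 lay above 0, with a median of 0.45, where 72.5% of all genes lay above 0 with a median of 0.16.

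**Figure D1:**
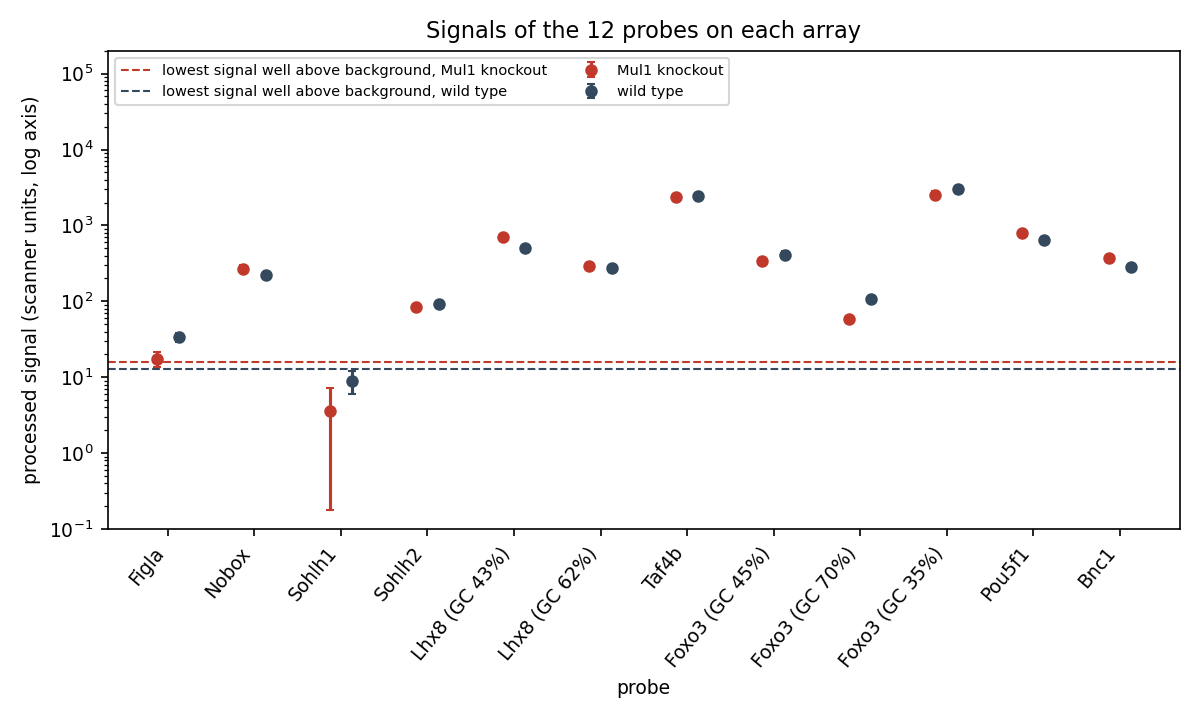
Processed signal of each of the 12 member probes (log axis, scanner units) on the Mul1 knockout array and on the wild-type array, with bars for the scanner error of the spot (the lower bar of Sohlh1 on the knockout array is cut short, since the error exceeds the signal) and dashed lines at the lowest signal well above background. Figla sits near the line on the knockout array at 17.4, and Sohlh1 lies under the lines on both, at 3.60 and 8.99.

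Among the basic helix-loop-helix factors, Figla was read well above background in the wild type alone. Its probe, for NM_012013 at chr6:85970852-85970911 on the plus strand, read 17.4 ± 3.91 on the knockout array and 33.4 ± 4.40 on the wild-type array (± scanner error, 1 spot each), and the spot on the knockout array was not well above background. The levels are -5.50 and -4.60, a difference of -0.91 with a scanner error of 0.38. As a ratio of these spots the signal was 1.87-fold lower in the knockout, or 1.71-fold lower on the spike-in scale. This ratio is no lower limit, since the knockout spot lies near background. The Figla signal was 1.102 times the lowest one well above background in the knockout and 2.60 times it in the wild type. The spot error is 22.5% and 13.2% of the signal.

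Sohlh1 gave no usable difference. Its probe, for NM_001001714 at chr2:25699446-25699505 on the minus strand, read 3.60 ± 3.62 on the knockout array and 8.99 ± 3.07 on the wild-type array, neither well above background, and on the knockout array the error was as large as the signal. Sohlh2, its related factor, was measured on both arrays at chr3:55013524-55013583 on the plus strand (NM_028937) and read 84.4 ± 9.17 on the knockout array and 92.6 ± 9.72 on the wild-type array. That is a difference of -0.10 with a scanner error of 0.22, and it turned to 0.03 on the spike-in scale. So the difference of Sohlh2 was smaller than its scanner error.

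Both homeobox factors of the cascade read higher on the knockout array. Nobox, whose product binds upstream of oocyte genes such as Gdf9, has a probe for NM_130869 at chr6:43253726-43253785 on the minus strand. It read 270.3 ± 27.2 on the knockout array and 222 ± 22.4 on the wild-type array, a difference of 0.31 with an error of 0.21. Lhx8, a LIM-homeobox factor needed for the primordial follicle, had a pair of probes for NM_010713. Its upstream probe read 295 ± 29.7 on the knockout array and 274 ± 27.5 on the wild-type array, a difference of 0.14 with an error of 0.21. Its downstream probe, at chr3:153969377-153969436 and 5232 bases away, read 697 ± 69.8 and 498 ± 49.9, a difference of 0.52 with an error of 0.20. The probes lay on the same side but their sizes differed, so the mean of 0.33 rests mostly on the downstream one.

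Pou5f1 also read higher on the knockout array. Whether its probe, for transcript variant NM_013633, also reads pseudogene transcripts was not examined. It read 797 ± 79.8 on the knockout array and 633 ± 63.4 on the wild-type array, a 1.29-fold higher signal or a difference of 0.37 with an error of 0.20. Bnc1, which in oocytes is described at ribosomal RNA genes and at genes read by RNA polymerase II, had the highest difference of the set. Its probe, for NM_007562 at chr7:89111978-89112037 on the minus strand, read 369.7 ± 37.1 on the knockout array and 285 ± 28.6 on the wild-type array, a 1.33-fold higher signal or a difference of 0.41 with an error of 0.20. A larger difference in either direction was seen for 22.5% of all measured genes. Epithelium markers, looked at because BNC1 is also made in epithelia, had a median of 0.25, with Ovgp1, an oviduct glycoprotein gene, highest at 1.54, Epcam at 1.09 and Upk1b lowest at -0.29. Krt5 and Krt14, keratins of stratified epithelium, read 23.8 and 26.3 on the knockout array and 23.8 and 22.0 on the wild-type array, close to background.

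Taf4b differed between the arrays by less than its scanner error. Its probe, for NM_001100449, read 2356 ± 236 on the knockout array and 2421 ± 242 on the wild-type array, a difference of -0.01 with an error of 0.20, which became 0.13 on the spike-in scale. A larger difference was seen for 97.7% of all measured genes.

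Foxo3 was the furthest below 0 of the 7 members measured on both arrays, and its probes disagreed in size. At the upstream probe, the most GC-rich of the 12, the signal was 58.2 ± 6.64 on the knockout array and 107.5 ± 11.1 on the wild-type array, a 1.81-fold lower signal or a difference of -0.85 with an error of 0.22. At the middle probe, 78612 bases downstream, it was 338 ± 34.0 and 413 ± 41.4, a difference of -0.25 with an error of 0.20. At the most downstream probe, for the transcript ENSMUST00000105502 at chr10:41901997-41902056 and 92964 bases from the first, it was 2547 ± 255 and 3000.1 ± 300.0, a difference of -0.20 with an error of 0.20. All 3 probes lay below 0, and the downstream pair differed by about the size of the error. The mean over the probes was -0.44, and 20.5% of all genes differed by more. With the downstream probe alone, which is the brightest, Foxo3 stood at -0.20, and without the dim upstream probe at -0.23. The upstream probe alone passed 1.5-fold. Of all 35255 probes well above background on both arrays, 6.4% were that much lower in the knockout and 7.36% that much higher.

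**Figure D2:**
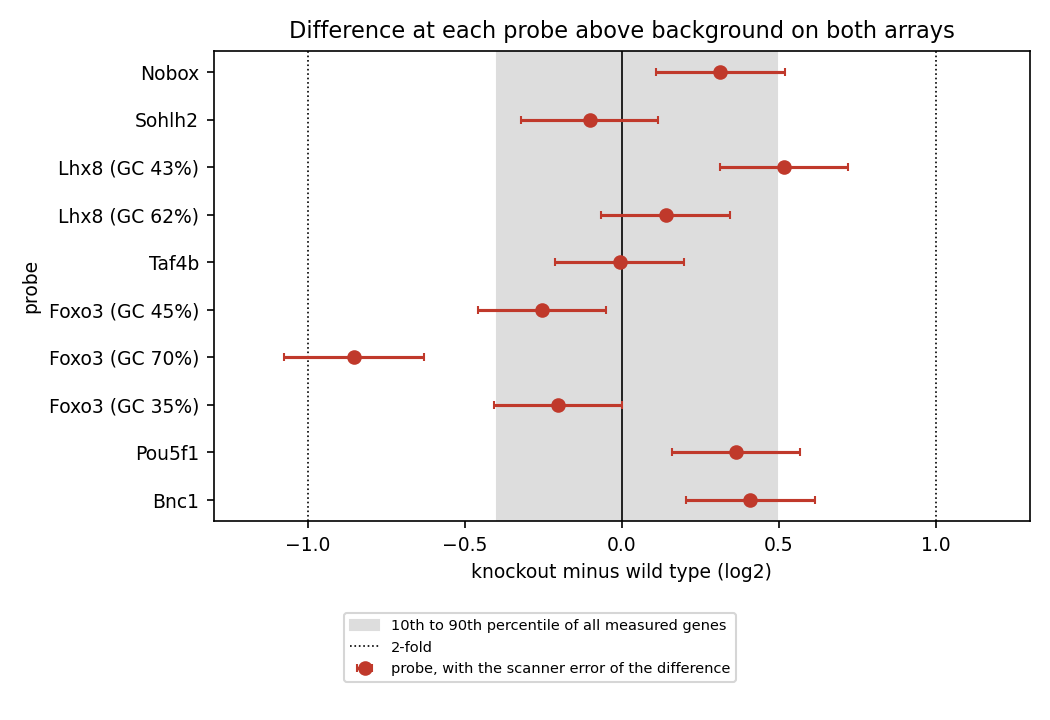
Knockout minus wild type (log2) at each of the 10 member probes above background on both arrays, with bars for the scanner error of the difference of 1 spot, a grey band from the 10th to the 90th percentile of all measured genes (-0.40 to 0.49) and dotted lines at 2-fold. The upstream Foxo3 probe (GC 70%) at -0.85 and the downstream Lhx8 probe (GC 43%) at 0.52 lie outside the band. The band is drawn from gene means, whereas the points are single probes.

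In Foxo3 and in Lhx8, the members with several probes, the upstream probe read lower in the knockout relative to the downstream one, a difference of -0.65 in Foxo3 and of -0.38 in Lhx8. Over 6484 genes with probes at least 1000 bases apart on 1 strand, the upstream minus downstream difference had a median of 0.00, with 10th and 90th percentiles of -0.57 and 0.45. For 3401 genes with probes at least 10000 bases apart, the median was -0.05 and those percentiles were -0.68 and 0.50. Foxo3 lay outside the central range of the wider set and within that of the distant pairs. In both genes the upstream probe is also the most GC-rich, and the part of base content in this was not tested.

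**Figure D3:**
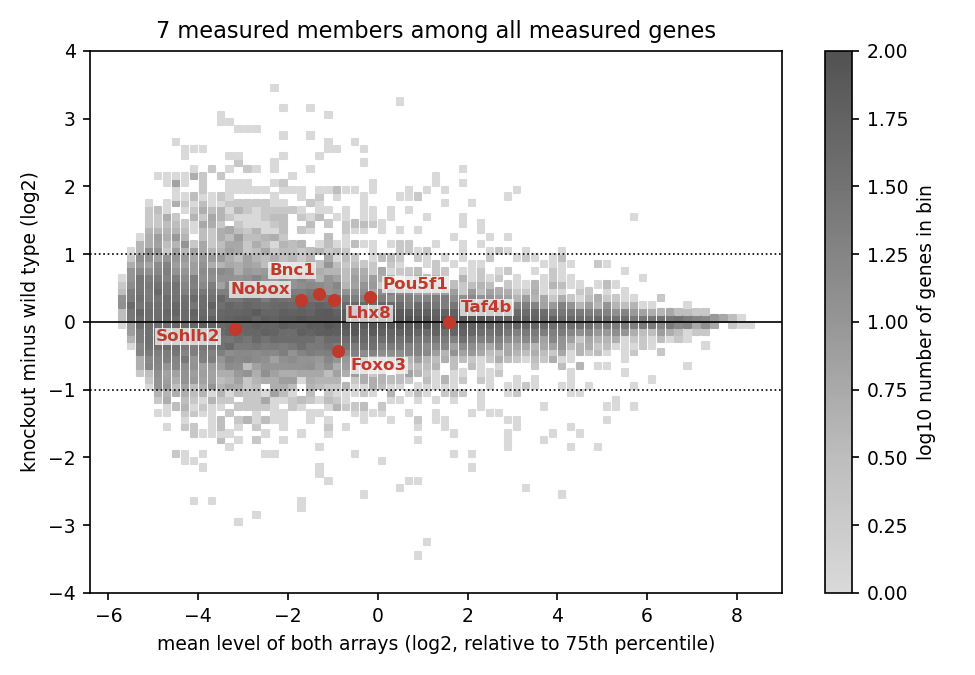
Difference (log2, knockout minus wild type) against mean level of both arrays for all 22894 measured genes, shaded by the number of genes in each bin, with the 7 measured members in red and dotted lines at 2-fold. The members lie between -0.44 and 0.41, inside the 2-fold lines.

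Genes reported as targets of the cascade were measured in full, and none was 1.5-fold apart. Of all measured genes 7.83% were that much higher in the knockout and 5.19% that much lower. On the spike-in scale 3 targets (Nlrp14, Bmp15 and Rspo2, all higher in the knockout) passed 1.5-fold. The share of all genes passing it on that scale was not counted. Of 18 genes that are bound by, or lost without, FIGLA, NOBOX, SOHLH1, SOHLH2 or LHX8, 10 lay above 0 and 8 below, with a median of 0.10, and on the spike-in scale 15 lay above 0 with a median of 0.23, where 72.5% of all genes lay above 0 with a median of 0.16. Nlrp14, a NLR-family gene of oocytes, was highest at 0.55, with signals of 2306 on the knockout and 1615 on the wild-type array. Oas1d, an oocyte member of the oligoadenylate synthetase family, was lowest at -0.24, with 11443 and 13779. The other targets spread between these, and no gene of the list was below background on either array.

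Among 7 dimerisation partners of basic helix-loop-helix factors and their inhibitors, Id1 stood at least 2-fold apart and the other 6 within 1.5-fold, apart from Id4 at 0.68 on the spike-in scale and Id2 at -0.77 with its brightest probe alone. ID proteins bind E proteins and keep them from DNA. Id1 read 6235 on the knockout and 2486 on the wild-type array, a 2.57-fold higher signal or a difference of 1.36. Tcf12, an E protein, was lowest at -0.32, the mean of 6 probes that ran from -0.62 to 0.30. The median of the list was 0.16.

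LIM-domain cofactors, which bridge LIM-homeobox factors such as LHX8 to other proteins, had a median of 0.01 over 9 genes, or 0.14 on the spike-in scale. Lmo2, a LIM-only gene best known from blood and endothelial cells, was the one at least 2-fold apart, with 316 on the knockout and 124 on the wild-type array, a difference of 1.38. Immune markers were also higher in the knockout, with a median of 1.82, while red cell markers were lower, with a median of -1.39, and the part of either in the difference of Lmo2 was not tested. Rlim, a ubiquitin ligase that acts on LIM cofactors, was lowest at -0.48, with 3 probes from -1.01 to -0.19.

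Subunits of TFIID and TBP relatives, the complex that TAF4B joins, were close to 0. The median over 17 measured genes of 18 was 0.01, or 0.14 on the spike-in scale. Taf9b was highest at 0.22 and Taf3 lowest at -0.29. None was 1.5-fold apart, where 7.83% of all genes were that much higher and 5.19% that much lower. Taf4, the ubiquitous paralogue of Taf4b, read 0.12 as the mean of 2 probes, or 0.00 at the brightest of them. The TBP relative Tbpl2 was not well above background on either array, with 3.70 on the knockout and 4.82 on the wild-type array.

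Genes around FOXO3 lay on both sides of 0. AKT phosphorylates FOXO3 and moves it out of the nucleus. Over 16 genes of the FOXO family and the PI3K-AKT pathway, with Kit, Kitl and Sirt1 counted in, the median was 0.00, or 0.14 on the spike-in scale. Pik3r1, the regulatory subunit of PI3K, was highest at 0.56. Foxo6 was lowest at -0.60, and Sirt1 stood at -0.58. Foxo6 was the 1 gene of this list that was 1.5-fold apart, whereas on the spike-in scale it stood at -0.47, within 1.5-fold, and Pik3r1 at 0.69 and Foxo4 at 0.60 passed it. Over 12 genes widely reported as FOXO targets the median was 0.12, or 0.25 on the spike-in scale. Irs2, an insulin receptor substrate, read 2594 on the knockout and 5364 on the wild-type array. That is a difference of -1.02, past 2-fold, or -0.88 on the spike-in scale, which is not. Ccng2, an atypical cyclin gene, was highest at 0.63. At 1.5-fold 1 of these targets was higher in the knockout and 1 lower, or 3 and 1 on the spike-in scale. With normexp, and with the brightest probe alone, 0 were higher and 1 lower. On the percentile scale 7.83% of all genes were that much higher and 5.19% that much lower. Of the 12 genes, 5 lay outside the range from the 10th to the 90th percentile of all genes, on both sides of 0. By definition that range leaves out 10% of all genes at each end. The same count was 3 of 16 for the FOXO family and PI3K-AKT list and 0 of 17 for the TFIID list.

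Factors that act with OCT4 lay on both sides of 0. Of 14 pluripotency genes 12 were measured, 6 above 0 and 6 below, with a median of 0.00 that became 0.13 on the spike-in scale. Klf4 was lowest at -0.74, with 3681 on the knockout and 6283 on the wild-type array. Tdgf1, a co-receptor of NODAL, was highest at 0.56, but its 5 probes ran from -0.13 to 1.03. Of the measured pluripotency genes Klf4 alone was 1.5-fold apart, or Klf4 and Tdgf1 on the spike-in scale. Sox2 read 8.64 on the knockout and 15.6 on the wild-type array, and only its wild-type spot passed the background call. That wild-type signal is under 15.8, the lowest one to pass on the knockout array. The same signal could thus miss the call there, and no difference is drawn for Sox2. Zfp42 passed on neither array. Transcription factors of the somatic follicle cells had a median of 0.03 over 12 genes, which ran from -0.17 to 0.17 over the other processing settings, with Nr5a1 highest at 0.53 and Runx2 lowest at -0.44. All 12 were within 1.5-fold, except Nr5a1 at 0.67 on the spike-in scale and Runx2 at -0.76 with its brightest probe alone. At 1.5-fold 7.83% of all genes were higher in the knockout and 5.19% lower.

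**Figure D4:**
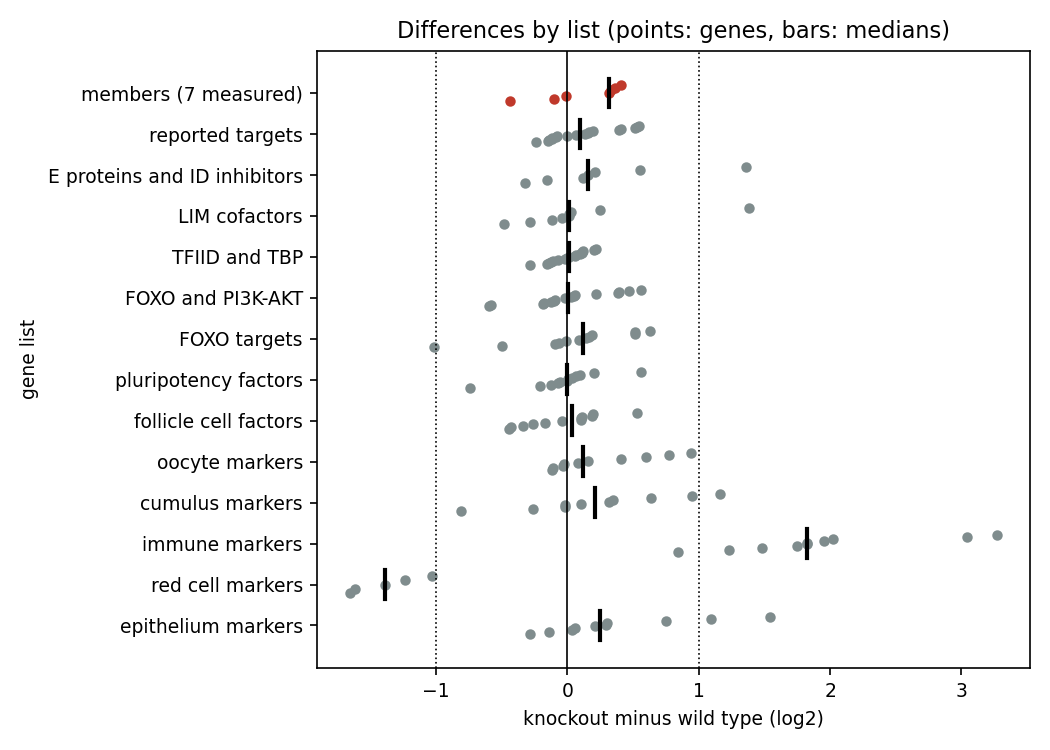
Knockout minus wild type (log2) of each measured gene in the member set and in 13 other lists, with black bars at the list medians and dotted lines at 2-fold. Immune markers (median 1.82) and red cell markers (median -1.39) lie away from 0, while the 7 measured members lie between -0.44 and 0.41.

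Upstream sequence of the members was searched in RefSeq promoters of build GRCm38.p6 for the letters CANNTG, the E-box to which basic helix-loop-helix factors bind and which reads the same on both strands. The 250 bases before the start were used, and 9 promoters of the members had an entry, with a pair for Pou5f1 and none used here for Taf4b. E-boxes were found in 6 of the 9, against 66.2% of all 32851 promoters. Sohlh1 had 5, a number reached or passed by 1.15% of all promoters, Nobox and Figla had 2 each, and Bnc1, Foxo3 and Lhx8 had 0. TAATTA or TAATTG, letters of the element that NOBOX binds, was in 0 of the 9 on either strand and in 11.3% of all promoters. A match describes these letters and not a bound site, and no match says nothing of the factor. The stretches before Sohlh1 and Figla, the basic helix-loop-helix members not well above background in the knockout, are shown with E-boxes in capitals.
Sohlh1, chr2:25847249-25847498, minus strand: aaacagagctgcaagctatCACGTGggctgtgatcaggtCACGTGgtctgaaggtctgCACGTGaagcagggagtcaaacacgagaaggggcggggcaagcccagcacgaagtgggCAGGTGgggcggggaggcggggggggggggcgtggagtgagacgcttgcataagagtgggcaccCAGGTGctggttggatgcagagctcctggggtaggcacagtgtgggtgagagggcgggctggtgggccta
Figla, chr6:86016941-86017190, plus strand: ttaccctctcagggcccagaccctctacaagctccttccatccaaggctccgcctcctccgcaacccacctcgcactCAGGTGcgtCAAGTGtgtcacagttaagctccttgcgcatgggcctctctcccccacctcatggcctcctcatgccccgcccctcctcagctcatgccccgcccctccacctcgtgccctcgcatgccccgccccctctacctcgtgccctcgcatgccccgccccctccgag

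The signs of 5 of the 7 measured members were kept under each of 10 other ways of processing the same arrays, and those of Sohlh2 and Taf4b turned on the spike-in scale alone. Nobox ran from 0.26 to 0.45, Lhx8 from 0.29 to 0.52, Pou5f1 from 0.32 to 0.50, Bnc1 from 0.35 to 0.54 and Foxo3 from -0.45 to -0.20. These settings reprocess the same pair of arrays and are no replicate. For a member with 1 probe, the settings on dim probes and on the brightest probe could not change the sign.

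**Figure D5:**
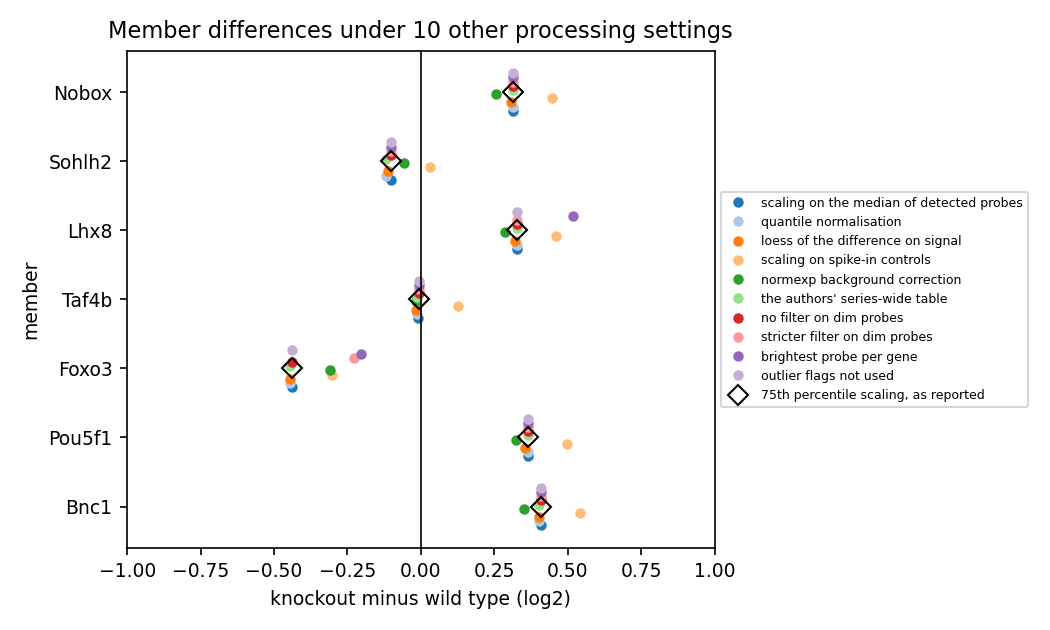
Knockout minus wild type (log2) of the 7 measured members as reported (open diamonds) and under 10 other processing settings (coloured points). Foxo3 lies at -0.20 with the brightest probe alone, against -0.44 as reported, and Sohlh2 and Taf4b pass 0 with spike-in scaling.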

How the data were processed

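The values used are intensity readings of single spots on a linear scale, deposited as the scanner software's tables. Agilent Feature Extraction 10.7.1.1 and array design 074809 are named per the file headers, whereas version 9.5.1.1 stands in the submitters' processing notes, and the processed signal was background-subtracted and detrended within an array. In the deposited series-wide table of intensity the sorted columns are equal within 0.0243%, as after quantile normalisation, and it served as an alternative. Spots marked as outliers (84 on the knockout array, 88 on the wild-type array) were dropped, replicate spots were averaged as log2, and the 75th percentile of the array was taken off (Python 3.11.15; limma 3.58.1 under R 4.3.3 for normexp and loess). A gene is the mean of its probes well above background on both arrays. Members were matched by the gene name in the files, and other genes were named through RefSeq (GRCm38.p6), 32994 probes by accession, 10224 by symbol and 520 by synonym. For Figla the fold sets the wild-type signal against its own knockout signal. That knockout signal exceeds the lowest one well above background there, though its spot was not called so, and the fold is a ratio and no bound. Named are all members, Mul1, and from the other lists the highest and lowest gene and genes at least 2-fold apart, fewer for the marker lists. Taf4, Tbpl2, Sox2, Zfp42, Krt5, Krt8, Krt14, Krt18, Cdh1, Kit and Sirt1, and the genes of disagreeing probes, were named after their values were seen. Some genes stand in several lists. Members and lists were chosen with earlier results of these data known. The 2-fold call was tried on simulated single spots with known differences, without the percentile scaling, the gene means or the list counts.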

Additional observations from a re-analysis of the deposited data

How the results depend on the processing

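With 1 array per genotype no replicate could be left out, and no paired analysis was possible because each genotype has 1 array. The arrays were also processed with the median of detected probes or 8 spike-in probes as the scale, with quantile normalisation, loess (span 0.3), normexp (offset 50) or the authors' table, with dim probes kept or cut at 4 times the lowest detected signal, with 1 probe per gene (the brightest), and with outlier marks ignored. Spike-in scaling raised the median of all genes to 0.16, a shift of 0.13. Without a filter on dim probes the median over all 9 members was -0.00713, against 0.31. In that setting 1 member (Sohlh1) was at least 2-fold lower and 2 members (Figla and Sohlh1) were at least 1.5-fold apart. These calls rest on spots not well above background on at least 1 array. In the other 9 settings no member measured on both arrays was 1.5-fold apart. Genes at least 2-fold higher in the knockout numbered 670, against 2764 without a filter, 212 with normexp and 338 with the stricter filter. Genes at least 2-fold lower numbered 313, against 1327, 116 and 195 in the same settings and 202 on the spike-in scale, where 896 were higher. Medians of the 13 other lists moved by less than the scanner error of 1 spot in all 130 recomputed values. That error is not the error of a list median, and the spike-in shift of 0.13 lies under it. Some medians near 0 changed sign. Below 0 lay that of follicle cell factors in 6 of 10 settings, of LIM cofactors in 3 and of the FOXO and PI3K-AKT list in 1. The pluripotency median lay above 0 in 2. Signal near background limits Figla and Sohlh1.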

Other observations

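Several genes around the oocyte factors carried probes that disagreed within the gene. Of 67 listed genes with several probes above background on both arrays, 7 had probes at least 1 log2 unit apart, where the median range was 0.30. Foxo4, the FOXO paralogue, had probes at -0.04 and 0.98, and Kitl, which encodes the ligand of the oocyte receptor KIT, had 3 probes from -0.83 to 0.32. Id2, an inhibitor of E proteins, had probes at -0.77 and 0.46, and Ssbp2, a LIM complex gene, ranged from -0.56 to 0.63. The remaining genes were Bcl2l11, Ptprc and Tdgf1. The gene means of these carry that spread, and the transcript that each probe reads was not examined.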
